A study of Homo sapiens with 6 samples.

Results

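The transcriptome of control MDA-MB-231 cells was described from the 3 libraries labelled siControl, out of 6 libraries in the series. A gene was taken as expressed if its value was at least 1 FPKM (fragments per kilobase of transcript, scaled to the mapped fragments of the library) in all 3 libraries, and 11089 of the 17452 genes listed met this rule, or 63.5%. MDA-MB-231 is a human breast cancer line classed as triple-negative, which means that the tumour cells lack the oestrogen and progesterone receptors and overexpression of the receptor tyrosine kinase HER2 (ERBB2). The cells carry the genotype label control, were kept in L-15 medium with 10% FBS in the absence of CO2, and belong to a design in which siRNA was transfected into the other group. Small interfering RNAs are short duplexes that guide the cutting of matching transcripts. The name siControl marks cells given a control siRNA, so they are read here as transfected cells and not as untouched ones. A pair of lipid transfection reagents appears in the protocols with no assignment to samples, while for the duplex sequence and harvest time nothing is given in those sources. The labels do not state whether separate cultures gave rise to the 3 libraries, so the SDs measure the spread between libraries, which may be technical. Values with ± are means ± SD over the 3 libraries, and sets of 3 values are given in the order siControl 1, 2 and 3. No test was made, because the question concerns levels within 1 group. Counts of expressed list members are to be read beside the 63.5% of all genes.

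Breast epithelium has an inner luminal layer, marked by simple keratins and hormone receptors, and an outer basal layer, marked by stratified keratins, p63 and contractile proteins. Carcinoma cells that pass through an epithelial-mesenchymal transition replace adherens junctions and simple keratins by vimentin filaments and matrix-binding proteins, under transcription factors of the ZEB, SNAI and TWIST families. MDA-MB-231 is widely used as a mesenchymal-like, invasive member of the triple-negative class, and is known to carry a mutation in BRAF.

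Depth was estimated from the steps in the lowest values at about 17200000 fragments in each library, so that 1 FPKM in a transcript of 1 kb corresponds to about 17.2 fragments. The estimate rests on the FPKM in the files and on transcript lengths from the GENCODE annotation. Only depths within a range set beforehand were searched, and multiples of the step found cannot be told apart from it. Over the 11234 genes with at least 40 fragments, siControl 2 and 3 differed by a mean chi-square of 2.03 per gene, against 12.96 and 14.36 for the pairs that include siControl 1. Counting noise alone gives about 1, which the pair siControl 2 and 3 would reach, at 1.02, if the true depth were 0.5 times the estimate. Even then 37 genes of this pair had a chi-square above 20, against 769 and 855 genes in the other pairs. siControl 2 and 3 lay nearest to each other and were counted as 2 libraries, as labelled. siControl 1 stood apart, with higher values for transcripts of low GC content and lower values for those of high GC content, and the gene values are therefore given library by library. PHF20L1 (Entrez 51105), the gene the series depletes, stood at 15.8, 12.5 and 12.7 FPKM in siControl and at 2.67, 2.31 and 2.74 FPKM in the siPHF20L1 libraries, so every library followed its label.

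FPKM in these cells ran in a continuous curve from values below 0.1 to 5836, the mean of MTRNR2L2. The summed FPKM was 395250.9, 416138.4 and 415721 in siControl 1, 2 and 3. Only 34 genes had a mean of 1000 FPKM or more, and they held 15.83% of the sum. Another 622 genes between 100 and 1000 FPKM held 36.31%, and 5719 genes between 10 and 100 FPKM held 41.87%. The 4924 genes between 1 and 10 FPKM held 5.73%, the 2470 genes between 0.1 and 1 FPKM held 0.25%, and the 3683 genes below 0.1 FPKM held 0.02%. In siControl 1 it took 625 genes to reach 50% of the sum, against 553 in siControl 2 and 546 in siControl 3. The summed FPKM of siControl 1 was thus spread over slightly more genes. The median over the expressed genes was 12.8 FPKM, and over all genes listed it was 4.62 FPKM.

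**Figure D1:**
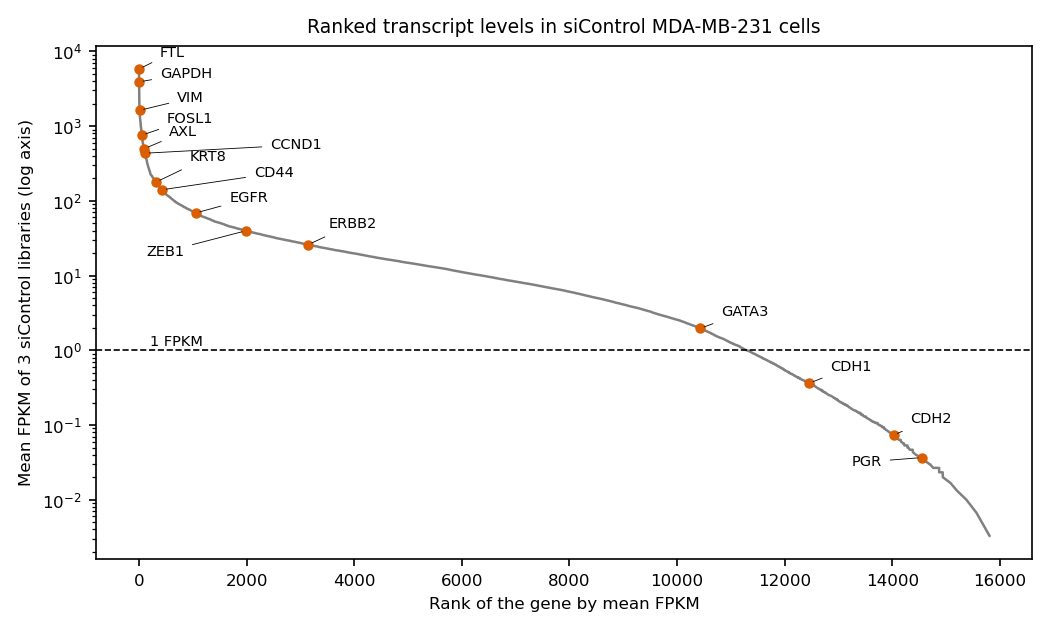
Mean FPKM of the 3 siControl libraries on a log axis, for every gene with a mean above 0, in order of rank. Orange points mark named genes, from FTL at 5806 FPKM through EGFR at 68.9 FPKM to PGR at 0.0367 FPKM, and the dashed line marks 1 FPKM.

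Iron storage, glycolysis, the actin cytoskeleton and the ribosome filled the top of the list. Of the 25 highest genes, 5 were glycolytic, 5 belonged to the actin cytoskeleton, 4 encoded cytosolic ribosomal proteins and 3 were MTRNR2L genes. FTL, the light chain of ferritin, which stores iron, had 5228, 6108 and 6082 FPKM, with siControl 1 the lowest. FTH1, the heavy chain with the ferroxidase activity, had 1895, 1888 and 1888 FPKM, so that light chain transcripts outnumbered heavy chain transcripts 3.07-fold ± 0.27 (SD, n = 3). GAPDH followed at 3906 ± 233 FPKM (SD, n = 3) and ACTB at 3672 ± 176 FPKM (SD, n = 3). TMSB10, a thymosin that binds actin monomers, had 2701 ± 144 FPKM, and EEF1A1, which brings aminoacyl-tRNA to the ribosome, had 1904 ± 96.5 FPKM. MT2A, a metallothionein that binds zinc and copper, had 1622, 1723 and 1972 FPKM, lowest in siControl 1 and highest in siControl 3. VIM had 1615, 1644 and 1613 FPKM and was rank 12, and HMGA1, an architectural chromatin protein that bends AT-rich DNA, had 1592, 1632 and 1573 FPKM and was rank 15. The other genes of the 25 were RPS2, ACTG1, RPL41, TUBA1B, PFN1, RACK1, ALDOA, LDHA, RPLP0, PKM, TMSB4X, ENO1 and RPL12, with means from 1197 FPKM for RPL12 to 1903 FPKM for RPS2, beside MTRNR2L2, MTRNR2L8 and MTRNR2L9.

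The MTRNR2L genes are near-identical nuclear copies of the mitochondrial 16S rRNA gene, and their values are uncertain because reads from the mitochondrial transcript and from the copies cannot be told apart in these files. MTRNR2L2 was listed at 5373, 6096 and 6038 FPKM, the highest mean of all genes. The 10 genes of this kind held 3.03% ± 0.18 (SD, n = 3) of the summed FPKM.

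Outside the gene lists, the other gene families and the 25 genes above, the 10 highest genes were LGALS1, TUBB4B, UBB, MIF, MTRNR2L1 (a further MTRNR2L gene), PLP2, YWHAE, TUBA1C, CLIC1 and ARHGDIA. LGALS1, galectin-1, a secreted lectin that binds galactose sugars on glycoproteins, stood at 856, 1002 and 1069 FPKM. MIF, a cytokine that is also kept in the cytosol, stood at 592, 734 and 760.4 FPKM. UBB, a polyubiquitin gene, stood at 666, 951 and 946 FPKM, and here siControl 1 was well below the others. In all 3 of these genes siControl 1 was the lowest library.

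Ribosomal protein genes held more of the summed FPKM than any other family counted here. Of 83 cytosolic ribosomal protein genes, 81 were expressed, or 97.6%, with a median of 542 FPKM, and together they held 11.26, 12.27 and 12.42% of the sum in siControl 1, 2 and 3. They supplied 46 of the 100 highest genes. All 78 mitochondrial ribosomal protein genes were expressed as well, at a far lower median of 31.7 FPKM and 0.683% ± 0.011 (SD, n = 3) of the sum. All 20 translation factors on the list were expressed, against 63.5% of all genes, with a median of 219 FPKM. RACK1, a scaffold on the small ribosomal subunit, had 1229, 1451 and 1530.3 FPKM, and EEF1G, a subunit of the elongation factor exchange complex, had 963, 1005 and 981 FPKM. EIF4E, the cap-binding protein, had 7.27 ± 0.468 FPKM, and EIF4EBP1, the repressor that binds it, had 137 ± 20.5 FPKM.

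The start of many ribosomal protein transcripts carries a 5′ terminal oligopyrimidine tract, a C at the first base followed by a run of C and T, through which their translation follows mTOR activity. The start windows below are shown because this feature was most frequent in the highest class of genes. The ribosomal protein windows were taken only from genes with such a start, so its presence in them was set by the choice. EEF1A1 and VIM were picked by name. Each runs from 10 bases before to 20 bases from the annotated start, on the transcribed strand, from RefSeq on GRCh38.p14, with the pyrimidine run that begins at the start in capitals.
RPL41, chr12:56116623-56116652, + strand: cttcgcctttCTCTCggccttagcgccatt
RPLP0, chr12:120201092-120201121, - strand: ggcgcgaggcCCTTCTCTCgccaggcgtcc
RPL12, chr9:127451387-127451416, - strand: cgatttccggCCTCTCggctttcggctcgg
RPL35, chr9:124861938-124861967, - strand: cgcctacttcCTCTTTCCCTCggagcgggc
RPS27, chr1:153990752-153990781, + strand: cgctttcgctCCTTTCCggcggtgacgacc
EEF1A1, chr6:73521013-73521042, - strand: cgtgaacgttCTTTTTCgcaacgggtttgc
VIM, chr10:17228231-17228260, + strand: atcgtgatctgggaggcccacgtatggcgc

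A C at the annotated start followed by at least 4 pyrimidines was found in 43 of 65 ribosomal protein promoters in the RefSeq table, or 66.2%, and in 8 of 16 translation factor promoters. It was found in 5 of 70 mitochondrial ribosomal protein promoters, or 7.14%, which lies near the 4.91% of all 13897 promoters matched to the files. The share was higher at higher levels, from 3.4% of genes at 0 in all 3 libraries to 42.3% of the 26 genes of 1000 FPKM or more that had a promoter. Without cytosolic ribosomal protein genes, it was 5.15% over all expressed genes, 5% between 10 and 100 FPKM, 10.1% between 100 and 1000 FPKM and 4 of 17 genes, or 23.5%, from 1000 FPKM. RPL41, RPLP0 and RPL12 above are among the 25 highest genes and were chosen for the run. EEF1A1, also among the 25, has the run, while VIM, of similar level, has no such run. A match here is a description of letters at an annotated start.

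Among the steroid hormone and ERBB receptors, EGFR was the highest and the oestrogen and progesterone receptors were near or at 0. Of the 8 receptors, 3 were expressed, or 37.5%, against 63.5% of all genes. EGFR, the receptor for epidermal growth factor and the first member of its family, had 75.5, 61.9 and 69.3 FPKM, highest in siControl 1. ERBB2 had 25.8, 25.9 and 26 FPKM, almost the same in every library, and ERBB3, a family member with little kinase activity of its own, had 3.86, 3.99 and 4.07 FPKM. These 3 receptors did not overlap with each other, and EGFR exceeded ERBB2 2.66-fold ± 0.27 (SD, n = 3). ERBB2 transcripts were thus present at rank 3143 of all genes, and the triple-negative class refers to HER2 protein and gene copies, which RNA levels do not measure.

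ESR1, the oestrogen receptor alpha, was listed at 0 in all 3 libraries, where 3 fragments would have given 0.0271 FPKM. PGR, the progesterone receptor and a target of ESR1, had 0.05, 0.03 and 0.03 FPKM. ERBB4 had 0.01, 0 and 0 FPKM. ESR2, the oestrogen receptor beta, had 1.06, 0.49 and 0.79 FPKM and reached the minimum in siControl 1 alone. ESR1 and PGR thus followed the triple-negative label at the RNA level.

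Other nuclear receptors were present. Of 21 on the list, 16 were expressed, or 76.2%, against 63.5% of all genes. The highest were PPARD at 42.1 ± 1.6 FPKM, NR2F2 (COUP-TFII) at 39.3 ± 0.826 FPKM and NR1H2, the liver X receptor beta, at 36.6 ± 4.84 FPKM. The glucocorticoid receptor NR3C1 had 19.2, 15.1 and 14.9 FPKM, with siControl 1 above the other libraries. VDR, the vitamin D receptor, was low at 1.76, 1.78 and 1.58 FPKM, and RXRG was listed at 0 in every library.

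Luminal keratins were high while the factors that specify the luminal layer were low or at 0. Of 22 luminal genes, 13 were expressed, or 59.1%, near the 63.5% of all genes. KRT7 had 168, 184 and 193 FPKM, KRT8 had 161, 186 and 188 FPKM and KRT18, the partner with which KRT8 forms filaments, had 129, 146 and 156 FPKM. In all 3 keratins siControl 1 was the lowest library, and KRT7 and KRT8 overlapped. KRT19, the smallest keratin of simple epithelium, lay clear below them at 24.7, 33.3 and 32.3 FPKM.

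Of the luminal transcription factors, FOXA1, a pioneer factor for oestrogen receptor sites, had 2.39, 2.54 and 2.59 FPKM, and GATA3, which maintains luminal fate, had 2.01, 1.98 and 1.9 FPKM. Both were above the minimum yet below the 12.8 FPKM median of expressed genes. SPDEF was just above the minimum at 1.08, 1.14 and 1.23 FPKM, and ELF3 was below it at 0.28, 0.27 and 0.34 FPKM. ELF5, EHF, BCL11A, KIT and TBX3 did not exceed 0.1 FPKM in any library, and TFF1 and TFF3, trefoil peptides induced by oestrogen, were listed at 0 in all 3. XBP1, which drives secretory capacity, was higher at 37.7 ± 2.37 FPKM.

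The basal markers named here were also split, with caveolins present and stratified keratins absent or nearly so. Values for the contractile proteins of the basal layer are not reported here, so the split is described for the named members only. Of 17 basal and myoepithelial genes with a value, 7 were expressed, or 41.2%, against 63.5% of all genes. CAV1, the coat protein of caveolae, had 159, 151 and 151 FPKM and was by far the highest, followed by CAV2 at 30.6 ± 1.99 FPKM and ITGB4, the hemidesmosome integrin, at 16.8 ± 1.1 FPKM. KRT17 had 0.56, 0.88 and 1.1 FPKM and crossed the minimum in siControl 3 alone. KRT14, the main basal keratin, had 0, 0.04 and 0 FPKM, and TP63, the basal master regulator, had 0.09, 0.16 and 0.19 FPKM. CDH3, CRYAB and KRT6A stayed at or below 0.1 FPKM, and NGFR was listed at 0. KRT5, KRT6B and MME were not analysed here.

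Epithelial junction genes were heterogeneous, with claudin 4 and tight junction scaffolds present and E-cadherin and its regulators low. Of 30 genes, 17 were expressed, or 56.7%, against 63.5% of all genes. CDH1, the E-cadherin of adherens junctions, had 0.45, 0.33 and 0.31 FPKM, below the minimum in every library. GRHL2 and OVOL2, transcription factors that maintain the epithelial state, RAB25 and PKP1 were listed at 0 in all 3 libraries, where 3 fragments of GRHL2 would have given 0.0333 FPKM. ESRP1, a splicing regulator of epithelial isoforms, had 0.02, 0.05 and 0.06 FPKM, and its paralog ESRP2 had 0.42, 0.42 and 0.45 FPKM.

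CLDN4 stood out at 59, 72.6 and 76.6 FPKM, and its 3 libraries exceeded those of CLDN3 by 80.3-fold ± 12.9 (SD, n = 3). CLDN3 had 0.62, 0.98 and 1.07 FPKM and CLDN7 had 3.14, 3.61 and 3.05 FPKM. Low levels of claudins 3, 4 and 7 define the claudin-low class of breast cancer, in which this line is often placed. In these libraries CLDN3 was near the minimum and CLDN7 was low, while CLDN4 was above the median of expressed genes. CTNND1, which stabilises cadherins, had 56.8 ± 2.34 FPKM. EPCAM, an epithelial adhesion molecule, had 2.25, 2.02 and 2.33 FPKM.

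Mesenchymal effector genes ran from some of the highest genes to genes at 0. Of 20 genes, 15 were expressed, or 75%, against 63.5% of all genes, and their median was 17.4 FPKM against 4.62 FPKM over all genes listed and 12.8 FPKM over the expressed ones. VIM exceeded KRT8 9.14-fold ± 0.77 (SD, n = 3) and KRT18 11.4-fold ± 1.09 (SD, n = 3), so vimentin transcripts outnumbered those of both keratins in every library. AXL, a receptor tyrosine kinase bound by GAS6, had 507, 489 and 501 FPKM and CD44, a hyaluronan receptor, had 142, 137 and 143 FPKM. FSTL1, a secreted follistatin-like protein, had 153 ± 3.59 FPKM, and FN1, fibronectin, had 50.5, 47.7 and 49.2 FPKM.

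In contrast, CDH2, N-cadherin, had 0.03, 0.09 and 0.1 FPKM and SPARC, a matrix glycoprotein, had 1.2, 0.95 and 1.04 FPKM. CDH11 and POSTN were listed at 0 in all 3 libraries, and MMP2 did not exceed 0.06 FPKM. The label of a mesenchymal-like line thus holds for VIM, AXL, CD44 and FN1 and not for N-cadherin, cadherin 11, periostin and MMP2.

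Among the transcription factors of the transition, ZEB1 was the highest. ZEB1, which represses CDH1, had 43.5, 37.7 and 38.2 FPKM, highest in siControl 1, and exceeded CDH1 111-fold ± 13.6 (SD, n = 3). ZEB2 had 2.64, 2.03 and 1.94 FPKM, SNAI1 had 2.53, 2.4 and 1.81 FPKM and SNAI2 had 1.97, 2.14 and 2.39 FPKM, and these 3 overlapped with each other. In all, 7 of 12 factors were expressed, or 58.3%, against 63.5% of all genes. With a minimum of 2 FPKM, near which ZEB2, SNAI1 and SNAI2 lie, the share was 33.3%. TCF4, SOX10, PRRX1 and FOXC2 did not exceed 0.1 FPKM, while TCF3 (E47) had 20.7 ± 1.69 FPKM. TWIST1 and TWIST2 were not analysed here.

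**Figure D2:**
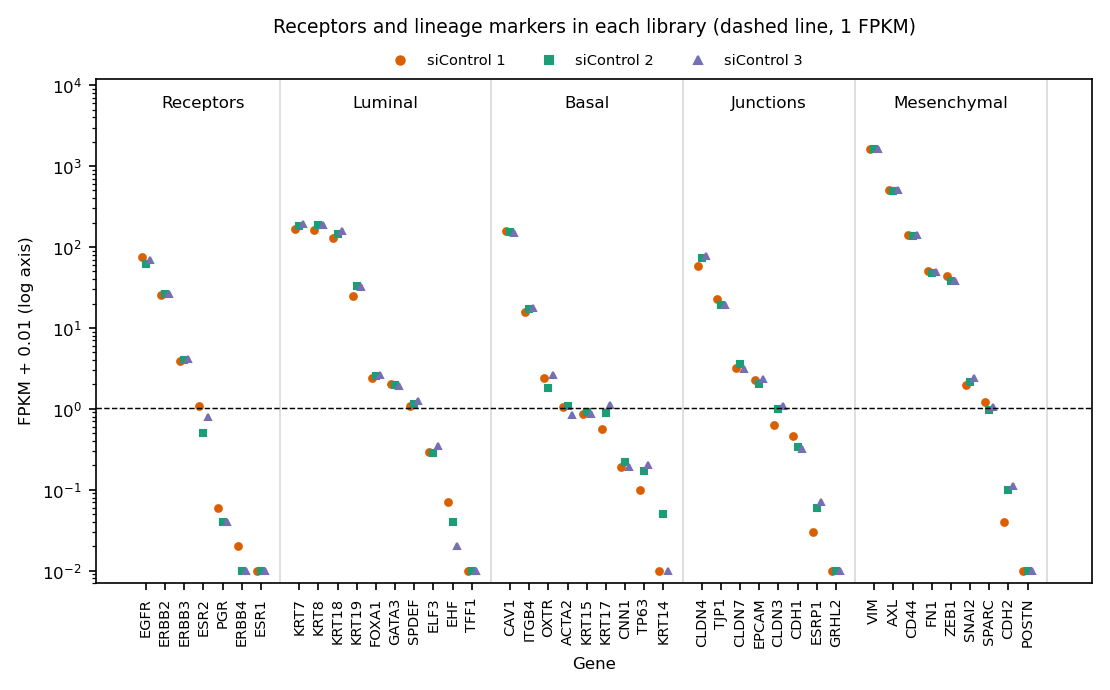
FPKM + 0.01 on a log axis in each siControl library for hormone and ERBB receptors and for luminal, basal, junction and mesenchymal genes; the dashed line marks 1 FPKM and points at the bottom are listed at 0. KRT7, KRT8 and KRT18 sit above 100 FPKM together with VIM and AXL, while CDH1 lies below 1 FPKM and ESR1, TFF1, GRHL2 and POSTN lie at 0.

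High CD44 and low CD24 on the cell surface are used to sort breast progenitor-like cells. At the RNA level CD44 exceeded CD24 30.6-fold ± 1.4 (SD, n = 3), with CD24 at 4.87, 4.48 and 4.47 FPKM. Of 14 progenitor markers, 8 were expressed, or 57.1%, against 63.5% of all genes. PROCR, the endothelial protein C receptor, had 29.3, 29.9 and 30.6 FPKM, ITGA6 had 41.2, 35.5 and 35.3 FPKM and KLF4 had 21.9, 24.7 and 25.6 FPKM. The aldehyde dehydrogenase ALDH1A3 had 2.3, 2.26 and 2.52 FPKM and ALDH1A1 did not exceed 0.02 FPKM. PROM1, which encodes CD133, was listed at 0 in all 3 libraries. In bulk RNA, a low level in every cell and a high level in few cells cannot be told apart.

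Markers of other cell types were mostly near 0. No lymphocyte marker of 9 was expressed, against 63.5% of all genes. PTPRC was the highest at 1.43, 0.87 and 0.93 FPKM, and CD3E, CD4, NKG7 and GNLY were at 0. Of 10 myeloid and erythroid markers, LYZ alone was expressed, at 4.05, 3.23 and 2.89 FPKM, while HBA1, HBB, MPO, CD163, AIF1 and FCGR3A were listed at 0. CD14 had 0.7, 1.08 and 1.24 FPKM and CSF1R had 1.07, 0.95 and 0.77 FPKM, at the minimum, and CD14 also passed without siControl 1, which brought the share from 10 to 20%. No hepatic or gut marker of 8 passed. Of 8 fibroblast markers, COL1A1 at 5.3, 5.68 and 6.18 FPKM and PDGFRB at 1.34, 1.54 and 1.3 FPKM passed, while COL1A2, the partner chain of COL1A1, was listed at 0 in all 3 libraries.

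Of 9 endothelial markers, 2 were expressed, or 22.2%, against 63.5% of all genes. ESAM, an adhesion molecule of endothelial tight junctions, had 180.2, 189 and 184 FPKM, at rank 305 of all genes, while VWF and CDH5 did not exceed 0.01 FPKM and PECAM1 had 0.38, 0.48 and 0.5 FPKM. Of 9 adipocyte and muscle markers, TNNT1, the slow skeletal troponin T, had 37.5, 45.7 and 42.8 FPKM, while DES, CKM and MYH11 were below the minimum. Of 9 neural and melanocyte markers, MITF had 6.62, 6.24 and 5.78 FPKM and MLANA had 1.94, 2.01 and 1.25 FPKM, with SOX10 and DCT at or near 0. None of 14 cancer-testis antigens was expressed, and 7 of them were at 0 in every library. The highest, MAGEA10, had 0.26, 0.59 and 0.51 FPKM.

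Receptor tyrosine kinases were dominated by AXL. Of 29 such kinases outside the ERBB group, 18 were expressed, or 62.1%, near the 63.5% of all genes. AXL exceeded EGFR 7.28-fold ± 0.59 (SD, n = 3). EPHA2, a receptor for ephrin-A ligands, had 129, 140.1 and 143 FPKM, lowest in siControl 1. FGFR1, a fibroblast growth factor receptor, had 46.4, 47.3 and 46.8 FPKM and MET, the receptor for hepatocyte growth factor, had 37.3, 31.5 and 31.2 FPKM. FGFR2 and FGFR3 were below the minimum, at 0.59, 0.48 and 0.56 FPKM and 0.42, 0.41 and 0.5 FPKM. RET was listed at 0, and NTRK2, ROR2, KIT, PDGFRA and ALK did not exceed 0.1 FPKM. The other TAM kinases were lower than AXL, with MERTK at 16.8 ± 0.491 FPKM and TYRO3 at 7.2 ± 0.539 FPKM.

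Receptors for TGF-beta, Notch and Wnt were broadly present, at moderate levels, in 18 of 19 genes, or 94.7%, against 63.5% of all genes. TGFBR2, the ligand-binding receptor, had 62.2, 59.4 and 58.8 FPKM, and TGFBR1, its kinase partner, had 9.23, 6.99 and 7.33 FPKM. NOTCH2 was the highest Notch receptor at 52.3, 45.1 and 48.1 FPKM, above NOTCH1 at 15, 16.6 and 16.9 FPKM, and NOTCH4 stayed below the minimum. LRP5, a Wnt co-receptor, had 57.8, 65 and 69 FPKM and its paralog LRP6 had 7.1, 5.37 and 5.45 FPKM, so the 2 co-receptors did not overlap.

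Cytokine receptors were expressed in 19 of 20 cases, or 95%, against 63.5% of all genes. The highest was TNFRSF12A, the receptor for TWEAK, at 99.3, 107 and 110.5 FPKM. TNFRSF1A, a TNF receptor, had 77, 80.1 and 77.9 FPKM, and IL6ST, the signal-transducing gp130, had 48.5, 37.6 and 37.6 FPKM, with siControl 1 the highest. IL1R1 was the exception at 0.56, 0.63 and 0.57 FPKM. Of 19 genes on a list of chemokine, lipid and protease-activated receptors that also holds F3, 10 were expressed, or 52.6%, against 63.5% of all genes. F3, the tissue factor that starts coagulation, had 171, 157 and 150.4 FPKM, and the protease-activated receptors F2RL1 and F2R had 34 ± 0.588 and 20.8 ± 0.0551 FPKM. CXCR4, a chemokine receptor often studied in breast cancer metastasis, was near 0 at 0.03, 0.03 and 0.03 FPKM, and CXCR1 and ACKR3, which shares the ligand of CXCR4, were listed at 0.

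Of 40 growth factors and cytokines with a value, 29 were expressed, or 72.5%, against 63.5% of all genes. CSF1, the growth factor of macrophages, had 222, 227 and 234 FPKM and was the highest of the list after CYR61 and CTGF. TGFB1 had 46.5, 57.2 and 57.2 FPKM and BMP4 had 72.7, 77.9 and 82.1 FPKM, and siControl 1 was lowest in both. HBEGF, an EGFR ligand, had 39.5, 38.1 and 38.1 FPKM, while TGFA had 7.42, 6.89 and 6.5 FPKM and EGF, EREG and BTC were below the minimum. VEGFA, which drives vessel growth, had 30.1, 30.4 and 31.3 FPKM. The inflammatory ligands IL6 at 8.91 ± 0.356 FPKM, CXCL8 at 6.46 ± 0.6 FPKM and IL1B at 15.3 ± 0.195 FPKM were expressed at modest level, and CCL2, FGF2 and INHBA were under the minimum in each library.

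RAS and MAPK pathway genes were nearly all expressed, and the AP-1 factor FOSL1 was the highest. Of 29 genes, 26 were expressed, or 89.7%, against 63.5% of all genes, with a median of 43.7 FPKM. FOSL1 (FRA-1), whose transcription and stability rise with ERK activity, had 797, 735 and 735 FPKM, while FOS had 0.72, 0.64 and 0.74 FPKM, and JUN had 71.4, 89 and 91.6 FPKM. Of the small GTPases, HRAS had 70.3, 95.9 and 91.5 FPKM, lowest in siControl 1, and NRAS had 35.5, 30.8 and 29.4 FPKM, highest in siControl 1. BRAF, a kinase that activates MEK, had 4.87, 3.9 and 4.73 FPKM.

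Feedback regulators of ERK were present as well. DUSP4, DUSP5 and DUSP6, phosphatases induced by ERK, had 77.2 ± 1.45, 86.6 ± 3.08 and 43.7 ± 1.47 FPKM. SPRY4, an inhibitor of receptor signalling, had 59.8 ± 1.74 FPKM, and ETV4 and ETV5, ETS factors downstream of ERK, had 33.2 ± 0.433 and 57.5 ± 1.49 FPKM. MAP2K2 had 173, 218 and 222 FPKM, above MAP2K1 at 46.8, 48 and 48 FPKM. MYC had 60, 63.9 and 61.9 FPKM, and MYCN and MYCL did not exceed 0.1 FPKM. All 15 genes of the PI3K and mTOR list and all 13 of the NF-kB list were expressed. RHEB, the GTPase that activates mTOR, had 117 ± 4.14 FPKM, PIK3CA had 5.38 ± 0.768 FPKM and RELA, the p65 subunit of NF-kB, had 85, 85.9 and 85 FPKM.

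Targets of the coactivators YAP and TAZ, which act with TEAD factors, were high in these cells. All 14 genes of the list were expressed, against 63.5% of all genes. ANKRD1, an ankyrin repeat protein known from heart and muscle, had 422, 425 and 408 FPKM. CYR61 (CCN1) had 397, 429 and 421 FPKM and CTGF (CCN2) had 252, 259 and 263 FPKM, both secreted matricellular proteins that bind integrins. ANKRD1 and CYR61 overlapped in range, and CTGF lay below both in every library. The coactivators themselves stood at 23.6 ± 1.4 FPKM for YAP1 and 27.9 ± 0.679 FPKM for WWTR1 (TAZ). TEAD1 was the highest TEAD factor at 73.6, 57.6 and 59.6 FPKM, and the upstream kinases LATS1 and LATS2 had 9.8 ± 1.85 and 10.2 ± 0.202 FPKM.

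TEAD factors bind DNA around the letters GGAATG, and the promoters of CTGF and ANKRD1 are shown because of how often they hold this word. Both run from 250 bases before to 50 bases after the RefSeq start on GRCh38.p14, on the transcribed strand, with GGAATG and the word TATAAA in capitals.
CTGF, chr6:131951323-131951622, - strand: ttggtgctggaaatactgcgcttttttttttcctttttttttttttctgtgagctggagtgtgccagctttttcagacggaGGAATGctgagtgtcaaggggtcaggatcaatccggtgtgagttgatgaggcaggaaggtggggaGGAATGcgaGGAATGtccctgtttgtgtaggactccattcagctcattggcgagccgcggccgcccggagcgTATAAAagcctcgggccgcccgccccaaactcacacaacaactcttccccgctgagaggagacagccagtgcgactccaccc
ANKRD1, chr10:90921038-90921337, - strand: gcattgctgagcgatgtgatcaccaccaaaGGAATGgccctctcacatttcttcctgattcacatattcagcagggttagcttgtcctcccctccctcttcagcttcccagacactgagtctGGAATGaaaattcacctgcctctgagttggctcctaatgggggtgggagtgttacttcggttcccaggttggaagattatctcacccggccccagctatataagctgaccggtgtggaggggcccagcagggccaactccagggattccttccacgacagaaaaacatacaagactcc

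The CTGF promoter holds GGAATG at 3 places, whose first letters lie at -169, -104 and -95 from the gene start, and the ANKRD1 promoter holds it at 2 places, whose first letters lie at -220 and -128 from the gene start. Both strands were searched, and no overlap between matches occurred in these promoters. Of 13897 promoters of 300 bases, 11.33% held the word at least once, 0.98% at least at 2 places and 0.11%, or 15 promoters, at least at 3. AXL at 499 ± 9.23 FPKM and AMOTL2 at 84.6 ± 3.32 FPKM had no match in this window, and YAP1 and LATS2 had 1 each, among the 11 genes of the list with a promoter. The matches describe letters and are not evidence of binding in these cells.

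Actin cytoskeleton genes were expressed without exception, all 36 of them, with a median of 183 FPKM. PFN1, profilin, which feeds actin monomers to growing filaments, had 1476 ± 47.3 FPKM, and CFL1, cofilin, which severs filaments, had 929 ± 69.8 FPKM. ACTN4, an alpha-actinin that crosslinks filaments, had 519.9, 571 and 596 FPKM, and FLNA, filamin A, had 340.5, 372 and 391 FPKM. MSN, moesin, which ties actin to the membrane, had 414, 398 and 394 FPKM, above its paralogs EZR at 109 ± 0.832 FPKM and RDX at 33.4 ± 3.97 FPKM. FSCN1, fascin, a bundler of filopodia, had 74.6 ± 5.74 FPKM, and LCP1, the leukocyte plastin, had 2.26 ± 0.0954 FPKM.

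Of the intermediate filament genes, 13 of 27 with a value were expressed, or 48.1%, against 63.5% of all genes. Besides VIM and the simple keratins, LMNA, the nuclear lamin A and C gene, had 288, 349.7 and 354 FPKM, lowest in siControl 1. KRT81 and KRT80 were the next keratins, at 81 ± 5.83 and 65 ± 1.77 FPKM, and KRT81 shares near-identical sequence with KRT86, listed at 3.54 ± 0.532 FPKM, so both values are uncertain. KRT1, KRT4, KRT13, KRT16, KRT20 and KRT23 were listed at 0 in all 3 libraries. Over the whole keratin family, 8 of 37 genes were expressed, or 21.6%.

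Annexins and S100 proteins, which bind calcium and membranes, were present through a few abundant members. ANXA2 had 948, 943 and 932 FPKM and S100A10, its partner in a tetramer at the plasma membrane, had 468, 389.5 and 402 FPKM. S100A11 had 667, 570 and 597 FPKM and S100A6 had 576, 545 and 560.4 FPKM, and in S100A10 and S100A11 siControl 1 was the highest library. S100A4, often called metastasin, was lower at 10.9, 14 and 13.5 FPKM, and S100A7, S100A8 and S100A9 were listed at 0 in all 3. In all, 9 of 12 annexins and 8 of 15 S100 genes were expressed, or 75 and 53.3%, against 63.5% of all genes.

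Matrix adhesion was dominated by a few integrin subunits. Of 25 integrins, 13 were expressed, or 52%, against 63.5% of all genes. ITGB1, the shared beta subunit, had 548, 488 and 472 FPKM, highest in siControl 1, and ITGA3, a laminin receptor subunit, had 302, 327 and 343 FPKM, lowest in siControl 1. ITGA3 exceeded ITGA6, another laminin-binding subunit, 8.75-fold ± 1.25 (SD, n = 3). ITGA5, which binds fibronectin, had 61.2, 68 and 70.5 FPKM, and ITGAV, which binds vitronectin and latent TGF-beta, had 19, 14.8 and 15 FPKM. ITGB2, a subunit known from leukocytes, had 18, 22.6 and 23.3 FPKM, while its leukocyte partners ITGAL, ITGAX and ITGAM were below the minimum. ITGB6, a subunit of epithelium, did not exceed 0.03 FPKM.

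Laminins and their partners were expressed in 10 of 16 cases, or 62.5%, near the 63.5% of all genes. LAMB3 had 70.1, 79.8 and 81.3 FPKM and LAMC1 had 76.4, 70.1 and 71.4 FPKM, and the 2 overlapped. LAMA3, which pairs with LAMB3 in the hemidesmosome laminin, had 9.41 ± 0.474 FPKM. NID1 and NID2, the nidogens that link laminin to collagen IV, did not exceed 0.1 FPKM.

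Of 33 collagen genes, 14 were expressed, or 42.4%, below the 63.5% of all genes, and none reached 50 FPKM. COL4A2 had 40.3, 46.3 and 45.7 FPKM, COL18A1 had 32.4, 37.9 and 40.2 FPKM and COL13A1 had 34.5, 35.8 and 34.4 FPKM. COL4A1, whose gene shares a bidirectional promoter with COL4A2 and whose chain pairs with it, had 6.72, 6.94 and 6.33 FPKM, and the ratio of COL4A2 to COL4A1 was 6.63 ± 0.61 (SD, n = 3). COL3A1, COL11A1 and COL5A3 did not exceed 0.01 FPKM, and COL1A2, COL2A1, COL9A1 and COL14A1 were listed at 0. Of the enzymes that modify collagen, 13 of 14 were expressed, with a median of 29.7 FPKM against 0.247 FPKM over the collagens. LOXL2, a lysyl oxidase that crosslinks collagen IV, had 198, 212 and 216 FPKM, P4HB, a subunit of prolyl 4-hydroxylase, had 183, 210 and 209.7 FPKM and LOX had 18, 17.3 and 17.3 FPKM.

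Among the matrix proteases, the lysosomal cathepsin D was the highest. CTSD had 558, 663 and 665 FPKM, lowest in siControl 1, and exceeded CTSB 22-fold ± 0.68 (SD, n = 3). PLAU, the urokinase that converts plasminogen to plasmin, had 107, 119 and 121 FPKM and PLAUR, its receptor, had 89.6, 102 and 101 FPKM. TIMP2 had 221, 224 and 221 FPKM and exceeded MMP14, the membrane protease with which it activates pro-MMP2, 3.33-fold ± 0.09 (SD, n = 3), while MMP14 had 64.2, 68.2 and 67.3 FPKM. MMP2 did not exceed 0.06 FPKM, MMP9 did not exceed 0.1 FPKM, and MMP7 and MMP10 were listed at 0. MMP1, a collagenase, was low at 1.92, 2.14 and 2.1 FPKM. In all, 23 of 33 genes were expressed, or 69.7%, near the 63.5% of all genes.

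Glycolysis genes were prominent, with 5 of them among the 25 highest genes. Of 33 genes, 23 were expressed, or 69.7%, near the 63.5% of all genes. All genes of the list together held 2.94% ± 0.052 of the summed FPKM (SD, n = 3). Beyond GAPDH, ALDOA had 1222, 1451 and 1476 FPKM, PKM had 1234, 1281 and 1269 FPKM and ENO1 had 1069, 1284 and 1296 FPKM, each lowest in siControl 1. LDHA, which converts pyruvate to lactate, had 1432, 1272 and 1289 FPKM, highest in siControl 1, and exceeded LDHB 3.87-fold ± 0.26 (SD, n = 3). For uptake, SLC2A1 (GLUT1) had 121, 137 and 137 FPKM and exceeded SLC2A3 9.53-fold ± 0.86 (SD, n = 3). HK1 had 159.8, 177 and 175 FPKM and HK2 had 27.7, 26.9 and 27.1 FPKM, so the hexokinase 1 isoform exceeded hexokinase 2, 6.26-fold ± 0.44 (SD, n = 3).

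Lactate exporters differed sharply. SLC16A3 (MCT4) had 315, 364 and 369.8 FPKM, whereas SLC16A1 (MCT1) was near 0 at 0.01, 0.12 and 0.12 FPKM. HK3 and SLC2A5 were listed at 0 in all 3 libraries, and PKLR, the liver and red cell pyruvate kinase, did not exceed 0.02 FPKM.

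Mitochondrial respiration genes were expressed almost completely. Of 33 nuclear oxidative phosphorylation genes on the list, 32 were expressed, with a median of 96.1 FPKM, and of 29 genes of the citric acid cycle and pyruvate dehydrogenase 27 were expressed, with a median of 26 FPKM. ATP5B, a subunit of ATP synthase, had 343, 361 and 372 FPKM, COX8A had 301, 359.6 and 373 FPKM and MDH2, mitochondrial malate dehydrogenase, had 93.5, 113 and 114 FPKM. COX7A1, the muscle form of its subunit, was the exception at 0.3, 0.53 and 0.3 FPKM. The kinases that inhibit pyruvate dehydrogenase differed, and both PDK1 at 11.9 ± 0.892 FPKM and PDK2 at 18 ± 1.25 FPKM exceeded PDK4 at 0.777 ± 0.0896 FPKM. PCK1, a gluconeogenic enzyme, was listed at 0 and PCK2, its mitochondrial paralog, had 3.37 ± 0.442 FPKM.

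The first enzyme of serine synthesis was low beside the next ones. PHGDH, the first, had 0.11, 0.25 and 0.23 FPKM, while PSAT1 and PSPH, the next enzymes, had 36.3, 33.7 and 34.5 FPKM and 11.9, 12.6 and 11.6 FPKM. SHMT2, which moves a carbon from serine to folate in mitochondria, had 100.2, 113 and 117 FPKM. SLC7A5, a transporter of large neutral amino acids, had 189.5, 206 and 207 FPKM and SLC3A2, its partner, had 92.8, 109 and 112 FPKM. Of 30 genes on the list, 26 were expressed. SLC7A11, the cystine transporter that also pairs with SLC3A2, was lower at 12.8, 9.52 and 9.24 FPKM, and siControl 1 was the highest library.

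In the pentose phosphate pathway, TKT, a transketolase, had 214, 261 and 273 FPKM and TALDO1, a transaldolase, had 186, 233 and 233 FPKM. TKTL1 was listed at 0. Lipid and sterol synthesis genes were expressed in 26 of 29 cases, with FADS2, a fatty acid desaturase, at 141 ± 8.45 FPKM and FASN, the fatty acid synthase, at 84.8 ± 6.73 FPKM. CD36, a fatty acid receptor, was below the minimum at 0.12, 0.23 and 0.17 FPKM.

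Redox genes were abundant. Of 30 iron, redox and metallothionein genes, 27 were expressed, with a median of 97.5 FPKM against 12.8 FPKM over all expressed genes. TXN, thioredoxin, had 301, 299.7 and 280.2 FPKM, GPX4, which removes lipid peroxides, had 218, 263 and 265 FPKM and NQO1, a target of NRF2, had 140.3, 148 and 144 FPKM. GSTP1, a glutathione transferase known to be silenced by promoter methylation in several tumours, was expressed here at 141, 184 and 191 FPKM, lowest in siControl 1. TFRC, the transferrin receptor, had 41.6, 36.1 and 36 FPKM and SLC40A1, the iron exporter ferroportin, had 3.57, 3.66 and 3.46 FPKM. GSTM1 was below the minimum at 0.36, 0.34 and 0.17 FPKM.

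All 19 hypoxia genes were expressed, against 63.5% of all genes, in cells grown without any stated oxygen limit. HIF1A, the oxygen-regulated subunit, had 224, 205 and 206 FPKM and exceeded EPAS1 (HIF2A) 9.73-fold ± 0.41 (SD, n = 3). BNIP3, a mitophagy receptor, had 219, 204 and 201 FPKM and NDRG1 had 119, 122 and 123 FPKM, while CA9, a carbonic anhydrase used as a hypoxia marker, was low at 2.69, 3.39 and 2.74 FPKM. The regulation of HIF1A is mainly at the protein level, which these data do not measure.

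Chaperones were all expressed, 22 of 22, with a median of 114 FPKM. HSPA8, the constitutive HSP70, had 693, 732 and 717 FPKM, HSP90AB1 had 589.6, 591 and 587 FPKM and HSPB1 had 386, 456 and 476 FPKM. HSPA1A and HSPA1B have near-identical coding sequences, and their levels of 4.8 ± 0.783 and 109 ± 10.4 FPKM are uncertain.

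**Figure D3:**
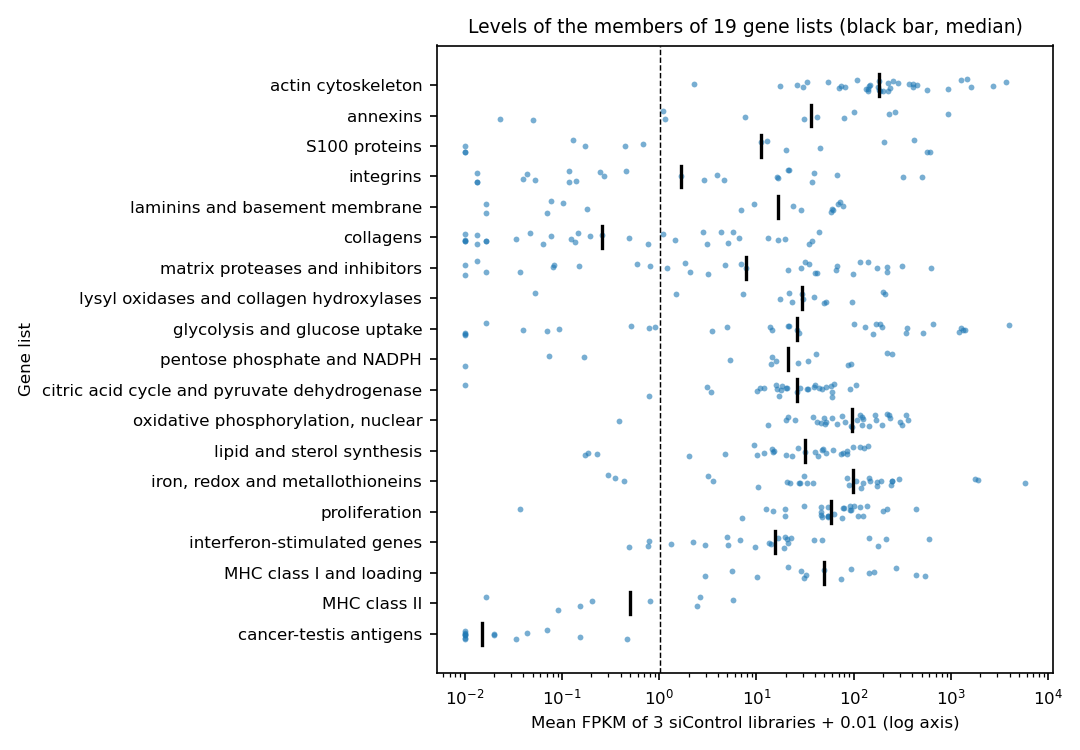
Mean FPKM + 0.01 over the 3 siControl libraries, on a log axis, for every member of 19 gene lists; each point is a gene, the black bar is the median of the list and the dashed line marks 1 FPKM. The actin list has a median of 183 FPKM, the nuclear oxidative phosphorylation list of 96.1 FPKM, the collagens of 0.247 FPKM and the cancer-testis antigens of 0.005 FPKM.

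Proliferation genes were expressed throughout, apart from cyclin D2. Of 30 genes, 29 were expressed, with a median of 58.4 FPKM. CCND1, cyclin D1, which activates CDK4 and CDK6, had 436, 430.2 and 435 FPKM and CCND2 had 0.03, 0.02 and 0.03 FPKM, so the expressed D-type cyclins were CCND1 and CCND3, the latter at 129, 139 and 141 FPKM. UBE2C and CDC20, which act in mitotic exit, had 209.8, 229 and 226 FPKM and 181, 208 and 213 FPKM, lowest in siControl 1. MKI67, the Ki-67 antigen, had 116, 104 and 108 FPKM and TOP2A, topoisomerase II alpha, had 114, 95 and 93.3 FPKM, both highest in siControl 1. TK1, thymidine kinase, had 100, 134 and 136 FPKM, and siControl 1 was below the others.

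Of 24 cell cycle inhibitors and tumour suppressors with a value, 23 were expressed, and CDKN2A was the exception. CDKN1A (p21) had 50.8, 49.7 and 49.8 FPKM and RB1 had 30.6, 24 and 23.3 FPKM. BRCA1 had 6.65, 6.23 and 5.31 FPKM and BRCA2 had 5.41, 3.66 and 3.74 FPKM. CDKN2A, which encodes p16 and p14ARF and is often deleted in cancers, had 0, 0 and 0.1 FPKM, where 3 fragments would have given 0.1432 FPKM.

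CDKN2A lies on chromosome 9, and its neighbours were examined in gene order. Levels were low in the genes next to it on 1 side. MTAP, a methylthioadenosine phosphorylase, had 0.44, 0.28 and 0.38 FPKM, KLHL9 had 0.1, 0.01 and 0.02 FPKM, HACD4 had 0.21, 0.25 and 0.2 FPKM and FOCAD had 0.75, 0.8 and 0.72 FPKM, all below 1 FPKM. MLLT3, beyond FOCAD, had 4.69, 4.44 and 4.7 FPKM, and on the other side TUSC1 had 3.89, 5.64 and 5.09 FPKM, CAAP1 had 9.75, 8.77 and 9.24 FPKM and PLAA had 15.7, 15.2 and 13.8 FPKM. That side held low genes as well, with LOC100506422 at 1.34, 0.76 and 1.18 FPKM and LRRC19 at 0.22, 0.13 and 0.2 FPKM, while IFT74 had 4.93, 4.79 and 4.62 FPKM. CDKN2B, DMRTA1, ELAVL2 and the interferon genes that lie among them were not analysed here. The copy number of the region was not measured in these data.

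In the BCL2 family, 13 of 16 genes were expressed, or 81.2%, against 63.5% of all genes. BCL2L1, which encodes BCL-XL, had 146, 148 and 144 FPKM, MCL1 had 118, 109.8 and 111 FPKM and BCL2 itself had 3.77, 3.43 and 3.54 FPKM, so BCL2L1 exceeded BCL2 40.8-fold ± 2.2 (SD, n = 3). Of the executioners, BAX had 86.6, 99.6 and 96.5 FPKM and BAK1 had 42.3, 47.1 and 46.6 FPKM. BCL2A1 was listed at 0, and HRK and BIK were below the minimum.

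Interferon-stimulated genes were present at varied level, 20 of 24 expressed, or 83.3%, against 63.5% of all genes. IFITM3, which blocks virus entry, had 568, 579.6 and 634 FPKM, ISG15, a ubiquitin-like modifier, had 163, 233 and 243 FPKM and IFIT3 had 150.4, 145 and 137 FPKM. ISG15 was clearly lowest in siControl 1. MX1 was low at 2.11, 2.57 and 1.96 FPKM, and MX2, BST2, IFI27 and IFI44L were below the minimum or spread across it. No untransfected library was analysed here, so levels before transfection were not measured. IFITM2 and IFITM3 are near-identical and their split is uncertain.

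Antigen presentation by class I was expressed throughout, 15 of 15 genes, with B2M, the light chain, at 594, 524 and 503 FPKM. Of the class II genes, 3 of 8 were expressed, or 37.5%, against 63.5% of all genes. CD74, the invariant chain, had 5.35, 6.12 and 5.85 FPKM and CIITA, the class II master regulator, had 2.6, 2.36 and 2.38 FPKM, while HLA-DRA had 0.09, 0.18 and 0.31 FPKM and HLA-DPB1 did not exceed 0.02 FPKM. Values of HLA genes are uncertain because their sequences vary and resemble each other. Among checkpoint and surface molecules, NT5E (CD73), which makes adenosine, had 157, 149 and 149 FPKM, CD276 (B7-H3) had 26.8, 30.2 and 31.7 FPKM and CD274 (PD-L1) had 2.9, 3.18 and 3.02 FPKM. VTCN1 and CD80 were listed at 0.

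Regulators of DNA methylation and chromatin were mostly expressed at moderate level. DNMT1, the maintenance methyltransferase, had 82.2, 88.7 and 92.5 FPKM, 8.9-fold ± 0.62 (SD, n = 3) above DNMT3B. UHRF1, which brings DNMT1 to replicated DNA, had 45.4, 46.8 and 48.2 FPKM, and SETD7, a lysine methyltransferase, had 3.62, 3.82 and 3.29 FPKM. PHF20, the paralog of PHF20L1, had 16, 16.2 and 15.5 FPKM, and siControl 1 had the highest PHF20L1. Of 16 genes on this list, 14 were expressed, with TET1 below the minimum at 0.98, 0.78 and 0.68 FPKM and DNMT3L at or below 0.1 FPKM. All 20 Polycomb and enhancer regulators were expressed, with EZH2, the H3K27 methyltransferase, at 41.8 ± 1.14 FPKM and SMARCA4 at 43 ± 0.99 FPKM.

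Genes at 0 in all 3 libraries numbered 1505 of 17452, or 8.62%, and some of them belong to families of restricted expression. Of 86 olfactory receptors, 2 were expressed, or 2.3%, and 48 were at 0. The expressed ones were OR7E24 at 6.32, 5.16 and 4.45 FPKM and OR7D2 at 1.46, 1.51 and 1.36 FPKM. None of 18 bitter taste receptors and none of 6 beta-defensins passed the minimum, and of 22 keratin-associated proteins KRTAP2-3 alone passed, at 5.31, 4.21 and 5.88 FPKM.

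Channels and developmental genes were low in most members. Of 82 potassium channel genes, 13 were expressed, or 15.9%, against 63.5% of all genes. They were led by KCNAB2 at 30 ± 1.53 FPKM and KCNN4, a calcium-activated channel, at 29.7 ± 3.06 FPKM. Of 32 GABA and glutamate receptors, 2 were expressed, with GRIK4 the higher at 1.33, 1.38 and 1.6 FPKM. Of 50 cytochromes P450, 12 were expressed, led by CYP51A1, a sterol enzyme, at 30.5 ± 1.6 FPKM. Of 60 protocadherins, 7 were expressed. Of 32 HOX genes with a value, HOXD4, HOXD1, HOXD3 and HOXB9 alone were expressed, at 6.39 ± 0.619, 5.37 ± 0.79, 4.64 ± 0.641 and 3.68 ± 0.0802 FPKM. Of 499 numbered zinc fingers, 333 were expressed, or 66.7%, near the 63.5% of all genes, and 46 of 62 RAB GTPases and 47 of 48 proteasome subunits were expressed, or 74.2 and 97.9%.

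Some silent genes lay in runs. Runs of at least 10 neighbouring genes of the files that were all below 1 FPKM in every library occurred 9 times and held 122 of the 5940 genes below 1 FPKM in every library. The longest, on chromosome 17, held 20 genes from KRTAP4-7 to KRT15 in the hair keratin cluster, 9 of them at 0. On chromosome 5, a run of 18 genes from PCDHA1 to PCDHB16 and a run of 15 genes from PCDHGA4 to PCDHGA12 held part of the clustered protocadherins. At 0 in all 3 libraries were 6 genes of the former run and 0 of the latter. On chromosome 1, 13 genes from FLG2 to S100A7 in the epidermal differentiation complex were silent, 10 of them at 0. The share of expressed genes per chromosome ran from 69.8% on chromosome 16 to 54.3% on the X chromosome.

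Promoters of expressed and silent genes differed in CpG content. CpG dinucleotides are depleted in most of the genome and kept in CpG islands, which mark the promoters of widely expressed genes. The median ratio of observed to expected CpG in the 300-base window was 0.35 for genes at 0 in all 3 libraries, 0.47 for other genes under 0.1 FPKM, 0.58 between 0.1 and 1 FPKM, 0.83 between 1 and 10 FPKM and 0.89 for genes of 1000 FPKM or more. It was higher in each class up to 1 FPKM, differed most between the classes on either side of 1 FPKM, and ran from 0.83 to 0.89 over the 4 classes above. The word TATAAA between 45 and 21 bases before the start was found in 9.48% of promoters of genes at 0, in 1.01% of those between 10 and 100 FPKM and in 7.69% of the 26 promoters of genes of 1000 FPKM or more, against 3.02% of all.

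**Figure D4:**
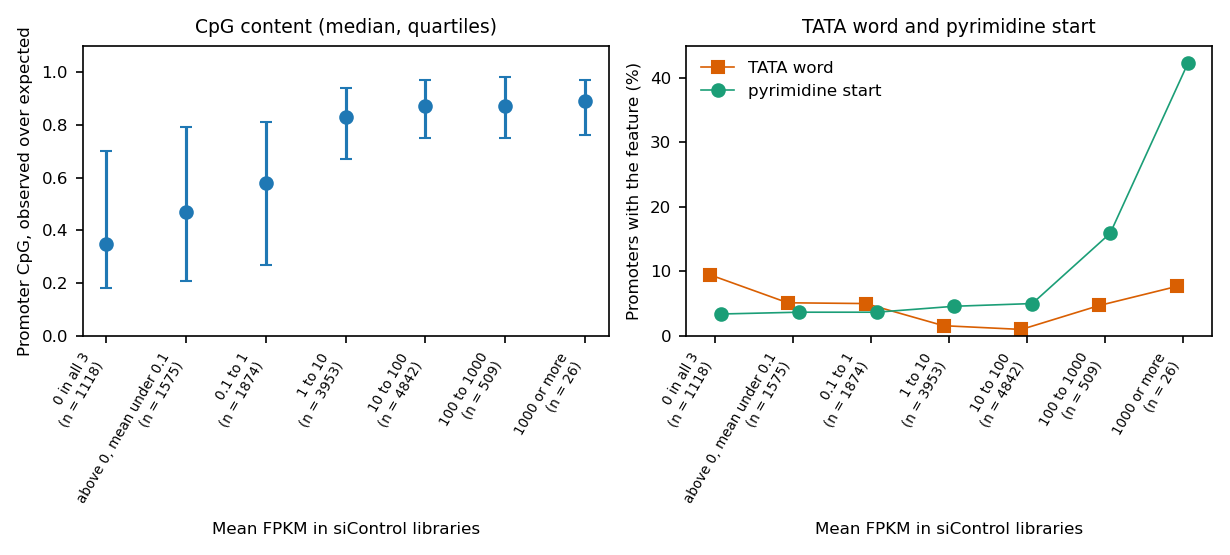
Left, the ratio of observed to expected CpG in the 300-base promoter window by level of the gene, with the median as a point and the quartiles as bars, rising from 0.35 to 0.89. Right, the percent of promoters with TATAAA at 45 to 21 bases before the start and with a pyrimidine run at the start, which reached 42.3% in the highest class; n is the number of promoters.

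The 3 libraries were close to each other, and siControl 1 stood apart in a graded manner. Of 6375 genes with a mean of at least 10 FPKM, none differed by 2-fold or more between the lowest and highest library, and 16 differed by 1.5-fold or more. The median ratio of highest to lowest library was 1.13 and the median coefficient of variation was 6.38%. On the log2(FPKM + 1) scale the median absolute difference was 0.056 between siControl 2 and 3 and 0.135 and 0.146 between siControl 1 and the others. The widest spread belonged to NOTCH2NL at 13.8, 7.43 and 9.44 FPKM, TMEM160 at 31.3, 52.5 and 52.5 FPKM and NFAT5 at 18.4, 11 and 12.5 FPKM, beside MTRNR2L10, ZFAND2B, ENDOG, GALK1, ZBED6, CHCHD5 and ESF1. NOTCH2NL is a near-identical copy of part of NOTCH2, so its value is uncertain.

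The difference of siControl 1 moved with the GC content of the transcript. In the quintile of expressed genes with the lowest GC, of median 39.3%, the median difference between siControl 1 and the mean of siControl 2 and 3 was 0.2 (log2), and 94.4% of genes were higher in siControl 1. In the quintile with the highest GC, of median 62.3%, it was -0.18 and 8.9% were higher. Over 10891 genes, the rank correlation with GC was -0.75 for this difference and -0.21 for the difference between siControl 2 and 3, as a description across genes, which share their libraries. Length moved the same way as low GC, with a median of -0.091 in the shortest quintile and 0.146 in the longest, and GC and length were themselves correlated at -0.28. KRT7, KRT8, KRT18, CTSD, ALDOA and ISG15, with transcripts of 59.5 to 64.2% GC, were lowest in siControl 1. ZEB1, ITGB1 and LDHA, of 39.3 to 42.8% GC, and EGFR, of 53.1% GC, were highest there. The part of GC content in the values of single genes was not tested.

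**Figure D5:**
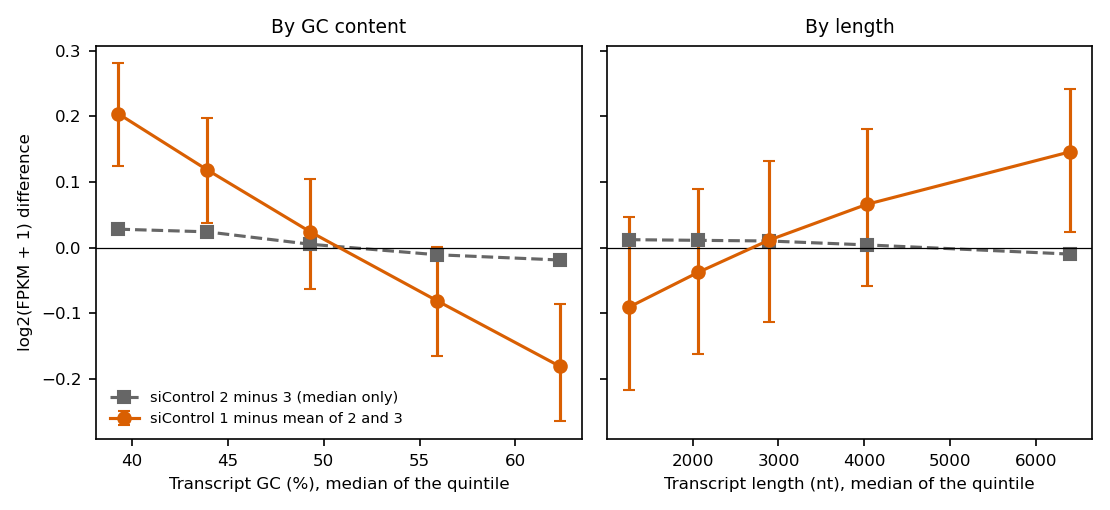
Difference in log2(FPKM + 1) between siControl 1 and the mean of siControl 2 and 3 (orange, median with quartiles) and between siControl 2 and 3 (grey, median) in quintiles of the expressed genes by transcript GC content (left) and length (right). The orange line falls from 0.2 to -0.18 with GC and rises from -0.091 to 0.146 with length.

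Close to the minimum, the choice of members turned on hundredths of an FPKM. Just inside were CADPS2 at 1, 1 and 1.01 FPKM, ARVCF at 1.09, 1.03 and 1 FPKM and DNASE1L2 at 1, 1.06 and 1.12 FPKM. Just outside were SAA2 at 1.89, 0.99 and 1.81 FPKM, ICAM4 at 1.81, 0.99 and 1.08 FPKM and KCNJ5 at 1.7, 1.18 and 0.99 FPKM, each with 1 library at 0.99 FPKM. In all, 226 genes reached 1 FPKM in 1 library, 197 in 2 and 5940 in none.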

How the data were processed

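RNA sequencing of 6 libraries of MDA-MB-231 cells was deposited, and the 3 siControl libraries are described here. Libraries were built from poly-A RNA with a kit that keeps strand, per the labels' protocols. Tools listed without roles in the submitters' processing notes are TopHat2 2.1.1, HTSeq 0.6.0 and Bowtie 0.12.2, with the build GRCh37. Per the file headers, the authors' deposited unit is FPKM, 1 value per gene and library, written to 2 decimals. How FPKM were computed, with which annotation and whether by strand was not given in the sources used here, so genes that overlap on opposite strands and near-identical copies are uncertain.

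Each file lists 17452 Entrez genes. A date stood in place of 26 symbols, which were taken from the RefSeq gene table, where 17419 identifiers were found. Genes of at least 1 FPKM in all 3 libraries were called expressed. No test was run, since the 3 libraries form 1 group and the description compares no groups. Log2 differences use a pseudocount of 1. Depth was estimated from the steps of low values in transcripts up to 1500 nt, and the script was tested on simulated data. Transcript GC and length came from GENCODE, which is on another build, so no coordinate was taken from it, and were matched for 17065 genes. Promoters came from RefSeq on GRCh38.p14, for 13897 genes. Python 3.11.15, pandas 2.3.3 and numpy 2.4.6 were used.

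The members and the 57 gene lists were chosen with earlier results of these data known. Of 1118 distinct names, 1072 had a value and 46 were not analysed here. Members were matched by symbol or, where that failed, by an older name that points to 1 gene. Genes were named by rule: the 25 highest means, the 3 to 6 highest members of a list, every hormone and ERBB receptor, members at or below 0.1 FPKM, the 10 with the widest spread at a mean of at least 10 FPKM, the 10 highest outside the lists, and genes next to the minimum. Some genes that these rules select are not reported here. Other genes were chosen after their values were seen, for their role. Alternatives were other minimums, rescaling of the library sums, other pseudocounts and leaving out each library.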

Additional observations from a re-analysis of the deposited data

How the results depend on the processing

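The number of expressed genes ran from 10229 to 14427 over the alternative minimums, rescaling to 1000000 per library (12051 genes) and the use of the mean (11299 genes). Rescaling to 1000000 raises every value and so lowers the minimum. Rescaling to the mean sum of the 3 libraries, an alternative chosen after seeing the data, keeps the scale and gave 11080 genes. The number ran from 11147 to 11169 with each library left out. Genes at 0 in all 3 libraries numbered 1784 to 1798 with a library left out, and 3235 were under 0.1 FPKM in all 3, more than 1.5 times the 1505 at exactly 0. Over all list genes, 74.0% were expressed, 77.8% with a minimum of 0.5 FPKM and 70.7% with a minimum of 2 FPKM. Both shares moved by more than the SD of the share between libraries. So did the share of 27 of the 57 lists with a minimum of 0.5 FPKM and of 23 with a minimum of 2 FPKM. Some lists moved by 1.5 times or more. With a minimum of 2 FPKM, endothelial markers and neural and melanocyte markers went from 22.2 to 11.1%. Fibroblast markers went from 25 to 12.5% and EMT transcription factors from 58.3 to 33.3%. With a minimum of 0.5 FPKM, lymphocyte markers went from 0 to 11.1% and myeloid and erythroid markers from 10 to 30%. The neighbours of CDKN2A went from 33.3 to 50%. Expressed genes that differed by 2-fold or more between any 2 libraries numbered 4 with a pseudocount of 1, 17 with a pseudocount of 0.1, 7 after rescaling to 1000000, which also shrinks the pseudocount relative to the values, and 4 after rescaling to the mean sum. Without siControl 1, COX8A replaced ATP5B as the highest oxidative phosphorylation gene, and without siControl 2, MLLT3 replaced TUSC1 among the neighbours of CDKN2A. The highest member of the other lists was kept under both log means and with each library left out. Genes holding 50% of the summed FPKM numbered 574 over the mean, 549 to 588 with a library left out and 750 without ribosomal protein genes. The CpG difference between expressed and silent genes was 0.51, and 0.45 between genes of at least 5 and under 0.1 FPKM. Below about 0.1 FPKM, values rest on a few fragments, and order among such genes is not interpretable. No paired analysis was possible because the description covers 1 group and its values come from no test.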

Other observations

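Several further groups were counted. Of 16 tetraspanins, membrane proteins that organise integrins and exosomes, 11 were expressed, or 68.8%, near the 63.5% of all genes. The highest were CD151 at 179, 206 and 221 FPKM, CD63 at 183, 191 and 187 FPKM and CD81 at 162, 194 and 198 FPKM. CD53, a leukocyte member, was listed at 0. CD151 and CD81 were lowest in siControl 1. Of 30 matrix glycoproteins and proteoglycans with a value, 22 were expressed, or 73.3%, against 63.5% of all genes. SRGN, serglycin, a proteoglycan best known from blood cells, stood at 105, 97.8 and 97.7 FPKM, and MFGE8, a milk fat globule protein that bridges integrins and phosphatidylserine, at 76.2, 88.2 and 81.9 FPKM. VCAN, versican, did not exceed 0.14 FPKM.

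Of 311 solute carriers, 172 were expressed, or 55.3%, below the 63.5% of all genes. Of 39 kinesins, 26 were expressed, or 66.7%, near the 63.5% of all genes, and of 39 complex I subunits, 38. All 29 widely used housekeeping genes were expressed, from REEP5 at 18.1, 17.1 and 17.9 FPKM to GAPDH, so none of them fell near the minimum.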
